A study of Mus musculus with 6 samples.

Results

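The genes examined here encode the voltage-gated sodium and calcium channels, the hyperpolarization-activated channels and the potassium channels, with their auxiliary subunits. Members were found by gene symbol: a sodium channel subunit (Scn), a calcium channel α1, α2δ or β subunit (Cacna, Cacnb), a hyperpolarization-activated channel (Hcn) or a potassium channel name (Kcn). The pattern matched 113 genes, from which 4 potassium channel genes known from glia, vessels and choroid plexus (Kcnj8, Kcnj10, Kcnj13 and Kcne2) were set aside, and 109 of the 18193 genes measured remained. The rule itself uses symbols and no expression value, although it was drawn up with earlier results of these data known. Of the 109, 82 encode subunits that form or line the pore, 24 encode auxiliary subunits and 3 are non-coding transcripts whose symbols match the pattern (Kcnq1ot1, Kcnmb4os1 and Kcnmb4os2).

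Total RNA came from the hippocampus of mice 2 to 3 months old and was measured on 6 arrays. The 3 control animals were IκBαfl/- littermates, and the 3 deficient animals were IκBαfl/-;Nestin-Cre, so every animal carried 1 null and 1 floxed allele of the IκBα gene and only the deficient animals carried the recombinase. Nestin-Cre acts in the neural lineage, which includes neurons and glia, so the loss is not specific to neurons, and other cells of the tissue keep the floxed allele. Values are RMA expression values on the log2 scale, 1 probe set per gene, and every difference is the mean of the 3 deficient arrays minus the mean of the 3 control arrays.

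Neurons fire when voltage-gated sodium channels open and the membrane depolarizes. Potassium channels bring the membrane back to rest and set how easily and how often a cell fires, and calcium channels couple firing to transmitter release and to gene regulation. Hyperpolarization-activated channels carry an inward current near rest. IκBα, the product of Nfkbia, holds NF-κB transcription factors in the cytoplasm, and NF-κB factors bind κB motifs in DNA, including those before Nfkbia itself. The comparison asks whether the transcripts of this excitability machinery differ in the hippocampus when brain IκBα is lost.

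Since NF-κB factors act through κB motifs, the stretches around the transcription starts were searched for them, and a few are shown to place the measured genes beside the targeted gene. RefSeq promoter sequences of build GRCm38.p6 were matched by symbol for 82 of the 109 members, as 115 windows running from 250 bases before a start and 300 bases long. The motif searched on both strands was the canonical κB motif of 10 bases. It was found in 15 of the 115 member windows, or 13.0%, and in 8.46% of all 32851 windows of the same length. The windows of Nfkbia, Cacnb2, Scn8a, Kcnc1 and Cacnb4 are shown as stretches around the motif, written 5′ to 3′ on the strand of the gene with the match in capitals: Nfkbia as the targeted gene (minus strand, chr12:55492648-55492701), Cacnb2 for the lowest difference among the matched members with a motif (plus strand, chr2:14604175-14604234), Cacnb4 for the highest (minus strand, chr2:52675887-52675946, with 2 overlapping matches of which 1 is marked), and Scn8a (plus strand, chr15:100870571-100870630) and Kcnc1 (plus strand, chr7:46396235-46396294, which also holds a second match left in lower case) as channels of the axon and of fast firing.
Nfkbia: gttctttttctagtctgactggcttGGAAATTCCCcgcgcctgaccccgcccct
Cacnb2: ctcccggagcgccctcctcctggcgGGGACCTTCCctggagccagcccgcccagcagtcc
Cacnb4: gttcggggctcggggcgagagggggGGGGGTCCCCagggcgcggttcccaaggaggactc
Scn8a: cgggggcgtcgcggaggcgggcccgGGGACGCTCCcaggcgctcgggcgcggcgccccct
Kcnc1: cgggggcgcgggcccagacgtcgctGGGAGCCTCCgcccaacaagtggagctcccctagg
A match of letters is a description and not a binding site. Of the 12 members with a motif in a window, Kcnip3 and Kcnmb4os2 had their only match after the start. The 12 had 6 differences above 0 and 6 below, with a median of -0.001 and a range of -0.26 to 0.16. The matched members without a motif had a median of -0.003. None of the 12 had an unadjusted p under 0.05 (limma), and none passed after adjustment, the smallest adjusted p of any member being 0.963 (limma, Benjamini-Hochberg).

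The targeted gene was checked first. Nfkbia (probe set 1420088_at) was at 10.39, 10.35 and 10.31 on the control arrays and 9.06, 9.13 and 8.66 on the deficient arrays. All deficient arrays lay more than 1 log2 unit below every control. The difference was -1.40 ± 0.12 (SE), a 2.64-fold lower level, at an adjusted p of 0.057 in the limma fit. Tested one by one among all probe sets with 1 symbol, 4 of its 5 probe sets passed, with adjusted p from 0.00125 to 0.0471 (limma). All 15 listed markers of hippocampal neurons were measured and none lay below the array median of 6.08 to 6.13. That median is over all probe sets, and the median over the genes measured was higher, at 7.63 to 7.69 per array. The ependymal and thalamic lists also had 0 genes below the cut, so passing it does not identify the tissue. The list of hippocampal neurons was lower in deficient animals, with 13 of 15 genes below 0 and a mean difference of -0.11. Its list means were 9.71 to 9.89 in controls and 9.67 to 9.75 in deficient animals. Of 12 pan-neuronal markers, 8 were below 0 and 4 above, with a mean difference of -0.06. Of 9 interneuron markers, 5 were below 0 and 4 above, with a mean difference of -0.05. Markers of other tissue were higher, with all 13 measured choroid plexus genes, all 12 meningeal genes and all 6 ependymal genes above 0. So were all 7 markers of the neighbouring thalamus, whose neurons also express many of these channels, by 0.17 on average (list means of 8.46 to 8.59 in controls and 8.55 to 8.77 in deficient animals). Control probe sets at the 3′ end of their transcripts exceeded those at the 5′ end by 2.02 on deficient array 2 and by 0.56 to 0.73 on the other 5. The part of these differences in the channel results was not tested, apart from the values given beside them.

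The channel genes as a group showed no shift between the genotypes. None of the 109 passed an adjusted p under 0.05 (limma, Benjamini-Hochberg), as was true of all genes, of which 0% passed. At an unadjusted p under 0.05, 0 members were higher, against 3.33% of all genes, and 1 was lower, Kcng4, against 1.39% of all genes. All 3 deficient arrays lay above all controls for 2 members, Scn2a and Kcnk4, against 5.94% of all genes, and below them for 1, Kcng4 again, against 3.82%. The members divided into 53 above 0 and 56 below, with a median difference of -0.000, beside 0.006 over all genes. Their mean value per array was 7.92, 7.93 and 7.91 in controls and 7.91, 7.93 and 7.89 in deficient animals, so the groups overlapped and the whole range spanned a few hundredths of a log2 unit. RMA scales every array to nearly the same distribution, so these levels are relative to all probe sets, and a change shared by most genes would not show. The arrays hold bulk tissue, in which fewer cells of a type and less RNA per cell cannot be told apart.

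**Figure D1:**
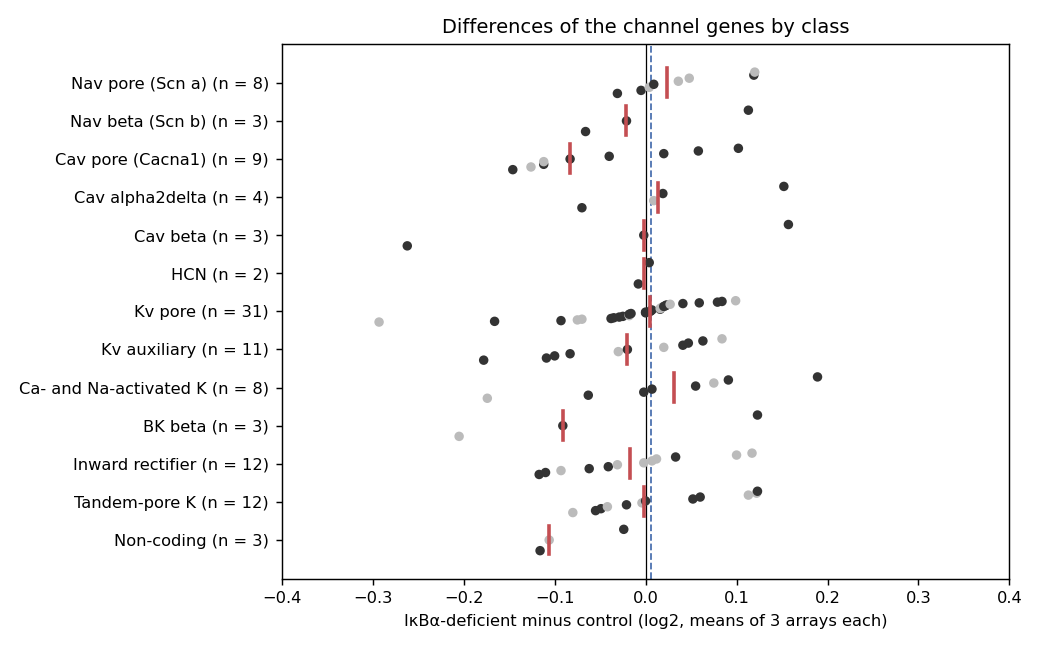
Differences between deficient and control means on the log2 scale (x axis) for the 109 channel genes in 13 classes (y axis). Each point is a gene, grey where its mean lies in the lowest 40% of all genes, the red bar is the class median, and the dashed line is the median of all genes at 0.006. Points lie between -0.29 and 0.19, and class medians between -0.11 and 0.03.

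The intervals give the range of differences compatible with the 6 arrays for each gene taken singly, and not the size that the adjusted test could find. The unadjusted 95% interval (limma) lay wholly within a 1.2-fold change in either direction for 62 members, or 56.9%, beside 51.6% of all genes. Above the lowest 40% of genes by mean value, the shares were 63% of members and 62.5% of all genes. The interval lay within a 1.5-fold change for 107 members, or 98.2%, beside 96.8% of all genes. The exceptions were Cacnb2 and Kcnq1ot1. For 80 members, or 73.4%, the difference was under 0.10 in size, as for 70.8% of all genes. Differences over 0.20 in size occurred in 3 members, Kcng4, Cacnb2 and Kcnmb1, or 2.75%, beside 7.14% of all genes. Of the members, 36 lay in the lowest 40% of genes by mean value, where RMA compresses differences, and for these a small difference says less.

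The 8 measured sodium channel α subunits, which open the upstroke of the action potential, had a median difference of 0.02, with 6 above 0 and 2 below. Scn2a encodes the α subunit of axons and of the axon initial segment of principal neurons. It was at 11.99, 11.99 and 11.94 on the control arrays and 12.03, 12.19 and 12.07 on the deficient arrays. Every deficient array lay above every control array, with deficient array 2 the highest. The difference was 0.12 ± 0.07 (SE), or 1.09-fold, with an unadjusted p of 0.116 and an adjusted p of 0.963 (limma). Scn2a also had 3 dimmer probe sets, and all 3 had the other sign. Averaged over all 4 probe sets, the difference of Scn2a was -0.09, and without deficient array 2 it was 0.071.

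Scn8a encodes the sodium channel concentrated at the distal initial segment and at nodes of Ranvier, and its promoter stretch is printed above. It was at 11.98, 12.11 and 11.94 on the control arrays and 11.88, 12.04 and 12.01 on the deficient arrays, with wholly overlapping groups and a difference of -0.03 ± 0.08 (SE). Scn1a, the sodium channel on which fast-spiking interneurons depend, was at 10.45, 10.47 and 10.41 on the control arrays and 10.37, 10.58 and 10.36 on the deficient arrays. Deficient array 2 was the highest of the 6 and the other 2 deficient arrays the lowest, and the difference was -0.01 ± 0.08 (SE). Scn3a, expressed most in the embryo, differed by 0.01. The peripheral channel Scn9a differed by 0.12 with controls at 4.20 ± 0.02 and deficient animals at 4.32 ± 0.21 (SD, n = 3), but it was dim, and it was at -0.10 once probe sets of shared or cross-reacting design were dropped. The 3 β subunits, which anchor and tune the α subunits, were split: Scn4b, the subunit linked to resurgent current, differed by 0.11 ± 0.09 (SE), Scn2b by -0.07 ± 0.07 and Scn3b by -0.02 ± 0.07.

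Of 9 calcium channel pore subunits, 3 were above 0 and 6 below, with a median of -0.08, and none reached an unadjusted p under 0.05 (limma). Over all genes 52.6% were above 0. With the choroid plexus mean as a covariate the class median turned to 0.036, and the differences of Cacna1b and Cacna1h turned above 0. Cacna1h, a T-type channel opened by small depolarizations, was at 9.69, 9.91 and 9.65 on the control arrays and 9.44, 9.52 and 9.85 on the deficient arrays. Deficient array 3 lay among the controls and the other 2 deficient arrays below them, for a difference of -0.15 ± 0.12 (SE). Its difference turned to 0.06 once shared probe sets were dropped. Cacna1b, the N-type channel of presynaptic terminals, differed by -0.11 ± 0.11 (SE) and Cacna1c, an L-type channel that links activity to the nucleus, by -0.08 ± 0.08. Cacna1a, the P/Q-type channel that drives fast transmitter release, went the other way at 0.10 ± 0.09. Cacna1e, the R-type channel, was at 11.54, 11.67 and 11.55 on the control arrays and 11.43, 11.58 and 11.63 on the deficient arrays, a difference of -0.04 with overlapping groups. Cacna1g and Cacna1d differed by 0.06 and 0.02. The skeletal muscle channel Cacna1s was dim and differed by -0.13 ± 0.08 (SE). For the class, the 3 deficient means per array were 8.22, 8.36 and 8.39 beside 8.36, 8.41 and 8.35 in controls, so deficient array 1 alone lay below the controls.

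The α2δ subunits bring calcium channels to the surface. Cacna2d2 was at 9.14, 9.12 and 9.03 on the control arrays and 9.35, 9.30 and 9.10 on the deficient arrays. Deficient arrays 1 and 2 lay above the controls and deficient array 3 among them, a difference of 0.15 ± 0.08 (SE) with an unadjusted p of 0.0987 and an adjusted p of 0.963 (limma). Its other 2 probe sets had the other sign, and the mean of all 3 gave -0.002. Cacna2d3 differed by -0.07 ± 0.06 (SE) and Cacna2d1, a target of gabapentin, by 0.02 ± 0.06.

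Cacnb2 and Cacnb4 encode cytoplasmic β subunits of the calcium channels and had the widest differences of the calcium channel genes, in opposite directions. Cacnb2 was at 8.79, 8.82 and 8.92 on the control arrays and 8.81, 8.06 and 8.88 on the deficient arrays. A single array, deficient 2, stood apart at 8.06, and the other 5 lay within 8.79 to 8.92. The difference was -0.26 ± 0.20 (SE) and became 0.001 without that array. Cacnb4 was at 11.45, 11.41 and 11.17 on the control arrays and 11.51, 11.77 and 11.23 on the deficient arrays, with overlapping groups and a difference of 0.16 ± 0.14 (SE). Without deficient array 2 the difference of Cacnb4 was 0.025, without deficient array 3 it was 0.295, and with the choroid plexus mean as a covariate it was -0.007. Cacnb1 was level at 9.56 ± 0.03 against 9.56 ± 0.02 (SD, n = 3). Both measured hyperpolarization-activated channels had differences near 0. Hcn2 was at 8.80, 8.79 and 8.78 on the control arrays and 8.75, 8.76 and 8.82 on the deficient arrays, a difference of -0.01 ± 0.06 (SE) with an interval of -0.14 to 0.13, and Hcn3 differed by 0.004 ± 0.07.

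**Figure D2:**
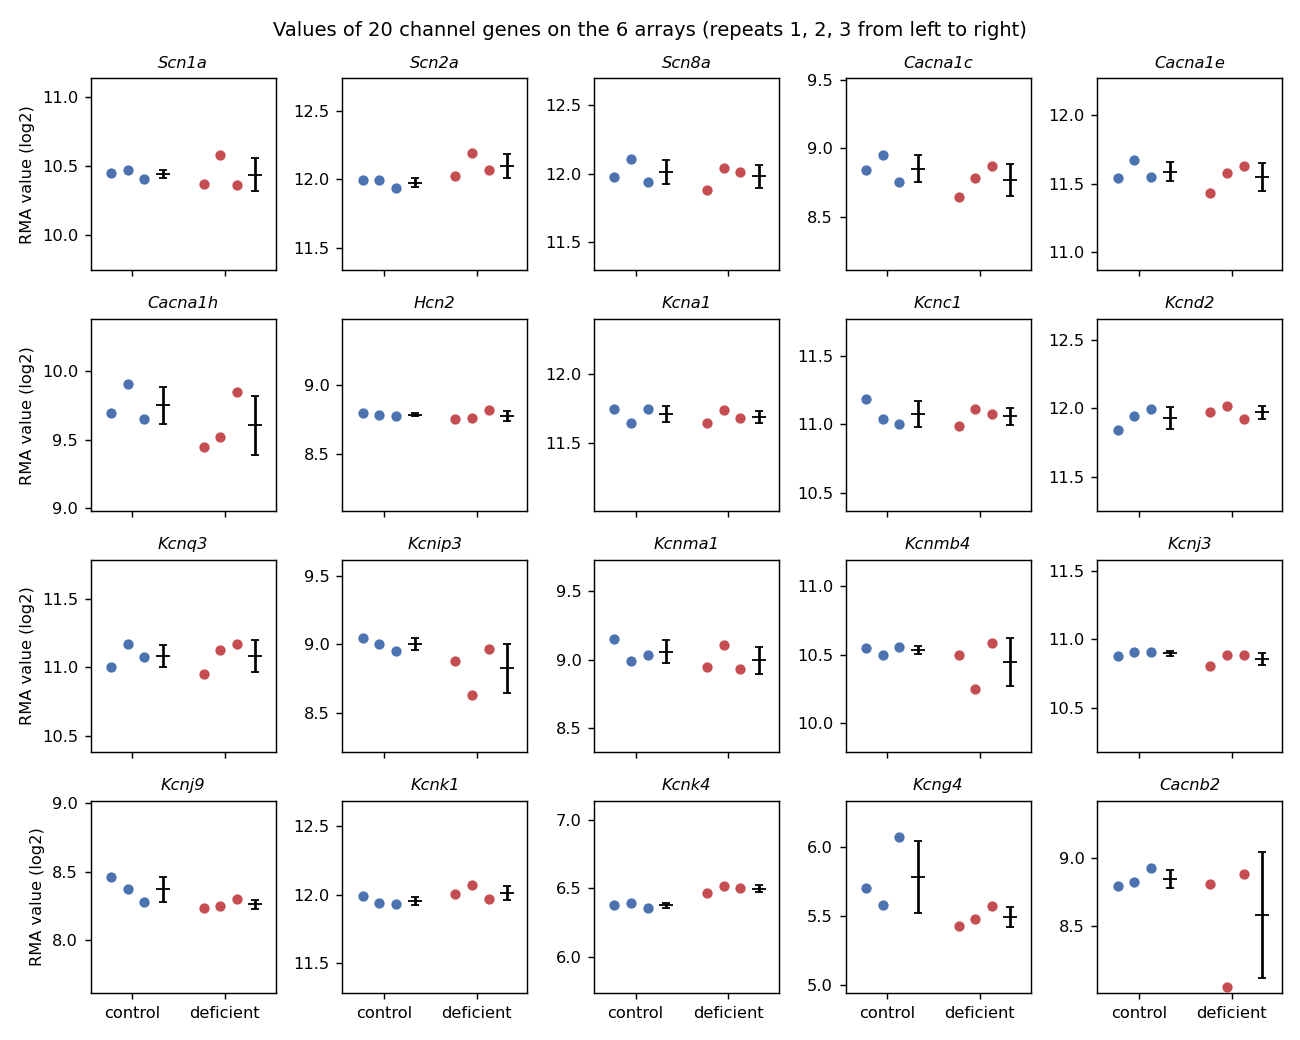
RMA values on the log2 scale (y axis, each panel its own range) of 20 channel genes on the 3 control arrays (blue) and the 3 IκBα-deficient arrays (red), with the mean and SD of each group as a cross and bar beside the points. The groups overlap in 17 of the panels. Scn2a and Kcnk4 lie higher and Kcng4 lower on all deficient arrays, and in the Cacnb2 panel the low point is deficient array 2.

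The largest class was the 31 voltage-gated potassium channel pore subunits (Kv), with 17 above 0, 14 below and a median of 0.01. The interval lay within a 1.2-fold change for 25 of the 31. Kcna1, an axonal delayed rectifier, was at 11.75, 11.65 and 11.75 on the control arrays and 11.65, 11.74 and 11.68 on the deficient arrays, a difference of -0.03 ± 0.06 (SE) with an interval of -0.17 to 0.12. Kcnd2, the A-type channel of pyramidal cell dendrites, was at 11.842, 11.948 and 11.998 on the control arrays and 11.974, 12.019 and 11.919 on the deficient arrays, a difference of 0.04 ± 0.07 (SE). Kcnc1, which lets neurons fire at high rates and whose promoter stretch is printed above, was at 11.18, 11.04 and 11.00 on the control arrays and 10.99, 11.11 and 11.07 on the deficient arrays, a difference of -0.02 ± 0.07 (SE). In all of these the groups overlapped. Kcnq3, a subunit of the M-current that restrains repetitive firing, was at 11.00, 11.17 and 11.08 on the control arrays and 10.95, 11.13 and 11.17 on the deficient arrays. Both groups averaged 11.08, and the interval ran from -0.19 to 0.19. Its partner Kcnq5 differed by 0.01, Kcna2 by 0.02, Kcna4 by 0.08, Kcnc2 by 0.08 and Kcnd3 by 0.02.

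Kcng4 was the single member with an unadjusted p under 0.05. It encodes a subunit that forms no channel on its own and modifies Kv channels of another family. It was at 5.702, 5.577 and 6.077 on the control arrays and 5.426, 5.476 and 5.576 on the deficient arrays. All deficient arrays lay below all controls, but control array 2 and deficient array 3 differed only in the last digit given, and control array 3 stood highest. The difference was -0.29 ± 0.12 (SE), 1.22-fold lower, with an unadjusted p of 0.048 and an adjusted p of 0.963 (limma). Without control array 3 the difference of Kcng4 was -0.15, and over the alternatives its unadjusted p ranged from 0.0144 to 0.415 (limma). It was the only probe set of the gene and lay among the dim genes. Kcnd1 came next in this class, at 7.55, 7.49 and 7.47 on the control arrays and 7.26, 7.26 and 7.50 on the deficient arrays. Deficient arrays 1 and 2 lay below the controls and deficient array 3 among them, a difference of -0.17 ± 0.08 (SE) with an adjusted p of 0.963 (limma). Averaged over its 3 probe sets, the difference of Kcnd1 was -0.022, and 1 of them had the other sign.

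Of the 11 auxiliary subunits of Kv channels, 5 were above 0 and 6 below, with a median of -0.02. The calcium-binding Kcnip proteins bring A-type channels to the membrane. Kcnip3, also known as the transcriptional repressor DREAM, was at 9.05, 9.01 and 8.95 on the control arrays and 8.88, 8.63 and 8.97 on the deficient arrays. The lowest value was again that of deficient array 2, deficient array 3 lay above control array 3, and the difference was -0.18 ± 0.09 (SE) with an adjusted p of 0.963 (limma). Without deficient array 2 the difference of Kcnip3 was -0.078. Kcnip2 differed by -0.08, Kcnip1 by -0.10 and Kcnip4 by 0.04. Of the cytoplasmic β subunits, Kcnab2 differed by -0.11 ± 0.07 (SE) and Kcnab1 by 0.05 ± 0.06.

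Potassium channels gated by calcium or sodium inside the cell shape the afterhyperpolarization. Of 8 measured, 5 were above 0 and 3 below, with a median of 0.03. Kcnma1, the pore of the large-conductance BK channel, was at 9.15, 8.99 and 9.04 on the control arrays and 8.94, 9.11 and 8.93 on the deficient arrays, a difference of -0.06 ± 0.08 (SE). The small-conductance channel Kcnn2 differed by 0.01 ± 0.08 (SE), and Kcnn3, dim on these arrays, by -0.17 ± 0.12. Kcnt2, a sodium-activated channel, had the highest difference of all members. It was at 9.13, 9.53 and 9.29 on the control arrays and 9.59, 9.51 and 9.41 on the deficient arrays, so that control array 2 lay above 2 of the 3 deficient arrays, and the difference of Kcnt2 was 0.19 ± 0.11 (SE) with an adjusted p of 0.963 (limma), and without control array 1 it was 0.095. Among the BK β subunits Kcnmb4, the main neuronal β subunit, was at 10.55, 10.50 and 10.55 on the control arrays and 10.50, 10.25 and 10.59 on the deficient arrays. Deficient array 2 alone stood low, and the difference of Kcnmb4 was -0.09 ± 0.09 (SE) with it and 0.007 without it. Kcnmb2 differed by 0.12 ± 0.08 and the smooth muscle subunit Kcnmb1, dim here, by -0.20 ± 0.10.

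Of 12 inward rectifiers, which hold the membrane near rest, 5 were above 0 and 7 below, with a median of -0.02, and 7 were dim. Kcnj3, Kcnj5, Kcnj6 and Kcnj9 encode subunits of the G-protein-gated channel, which inhibitory transmitters open. Kcnj3 was at 10.88, 10.91 and 10.91 on the control arrays and 10.80, 10.88 and 10.88 on the deficient arrays, a difference of -0.04 ± 0.06 (SE). Kcnj9 was at 8.46, 8.37 and 8.28 on the control arrays and 8.24, 8.25 and 8.30 on the deficient arrays, with deficient array 3 above control array 3 and a difference of -0.11 ± 0.07 (SE). The difference of Kcnj6, dim on these arrays, was -0.09 ± 0.07 (SE) and turned to 0.011 with the choroid plexus mean as a covariate. Of the 5 probe sets of Kcnj6, 1 had the other sign. Kcnj5, dim here, differed by 0.01 ± 0.09 (SE). None of these 4 had an unadjusted p under 0.05 (limma). Kcnj11, the pore of the ATP-sensitive channel, differed by 0.03 ± 0.07.

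The 12 tandem-pore channels carry background potassium current, and 5 were above 0 and 7 below. Kcnk4, which encodes the mechanically and thermally sensitive channel TRAAK, was at 6.38, 6.39 and 6.36 on the control arrays and 6.47, 6.52 and 6.50 on the deficient arrays. The arrays of each group lay close together and the groups did not overlap, a difference of 0.12 ± 0.06 (SE) or 1.09-fold, with an unadjusted p of 0.0671 and an adjusted p of 0.963 (limma). Its difference lay between 0.11 and 0.14 under every alternative that measured it, but several of these could not move it. Its only probe set is not of shared design, so averaging probe sets or dropping shared ones returned the same value. The block, the trend and robust settings and the test without moderation also leave the difference as it is. The only probe set of Kcnk4 lay among the dim genes, where a small difference says less. Kcnk1 was at 11.99, 11.94 and 11.94 on the control arrays and 12.01, 12.07 and 11.97 on the deficient arrays, a difference of 0.06 ± 0.06 (SE), Kcnk13 differed by 0.12 ± 0.07, Kcnk2 by 0.05 ± 0.07, and Kcnk3 had equal means of 7.44. Of the non-coding transcripts, Kcnq1ot1, the imprinted antisense RNA of the Kcnq1 locus, had the widest interval of all members, from -0.70 to 0.47. It was at 7.75, 7.85 and 7.24 on the control arrays and 7.11, 7.34 and 8.06 on the deficient arrays, and 4 of its other 5 probe sets had the other sign. Kcnmb4os1 and Kcnmb4os2 differed by -0.11 and -0.02.

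A list of 61 channel genes named for hippocampal excitability had 51 members measured here, and the other 10 were not analysed here. Of the 51, 23 were above 0 and 28 below, with a median of -0.005 beside 0.006 over all genes. The interval lay within a 1.2-fold change for 31 of them, or 60.8%, and within a 1.5-fold change for all 51. Their mean per array ranged from 9.38 to 9.42 in controls and from 9.37 to 9.42 in deficient animals.

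**Figure D3:**
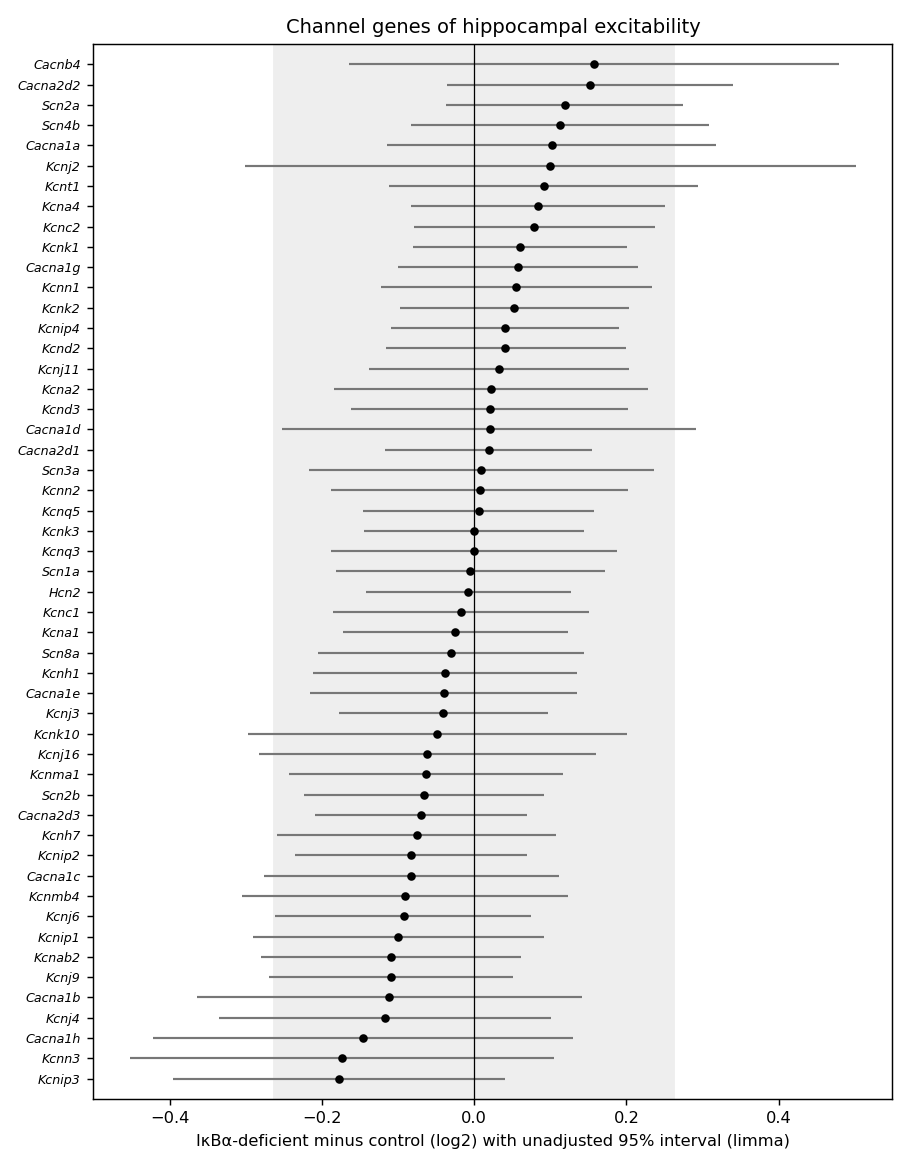
Deficient minus control difference on the log2 scale (x axis) for the 51 measured channel genes of hippocampal excitability (y axis), with the unadjusted 95% interval of the limma fit as a line. The grey band marks a 1.2-fold change in either direction, 31 intervals lie wholly within it, and every interval crosses 0.

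Genes that place or modify these channels, listed together with the further channel gene Nalcn, were also split evenly in sign. Of 35 listed partners, 31 were measured, with 16 above 0, 15 below and a median of 0.002. None passed after adjustment. At an unadjusted p under 0.05 (limma) 0 were lower, beside 1.39% of all genes, and 1 was higher, beside 3.33%. That gene was Nalcn, the sodium leak channel that sets resting excitability, at 11.20, 11.21 and 11.18 on the control arrays and 11.36, 11.39 and 11.33 on the deficient arrays. All deficient arrays lay above all controls, as for 5.94% of all genes. The difference was 0.17 ± 0.06 (SE), or 1.12-fold, with an unadjusted p of 0.0213 and an adjusted p of 0.963 (limma). Averaged over its 2 probe sets, the difference of Nalcn was 0.088. Ank3, the ankyrin that anchors sodium channels at the initial segment, was at 13.12, 13.06 and 13.03 on the control arrays and 12.89, 13.02 and 12.97 on the deficient arrays. All deficient arrays lay below all controls, as for 3.82% of all genes. The margin was small, and the difference was -0.11 ± 0.06 (SE). The scaffold Akap5 and the Kv4 partner Dpp10 differed by 0.14 ± 0.08 and 0.23 ± 0.13 with overlapping groups.

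Of the 4 potassium channel genes set aside, Kcnj13 and Kcne2 had differences over 2 log2 units and the other 2 had small ones. Kcnj13, an inward rectifier of choroid plexus and retinal epithelium, was at 8.44, 5.76 and 4.59 on the control arrays and 9.23, 8.66 and 8.30 on the deficient arrays. Control array 1 lay among the deficient arrays, and the other 2 controls lay far below. The difference was 2.47 ± 0.84 (SE) with an unadjusted p of 0.019 and an adjusted p of 0.963 (limma). Kcne2, an auxiliary subunit of the same epithelium, was at 7.25, 4.16 and 4.09 on the control arrays and 7.91, 7.33 and 6.86 on the deficient arrays, in the same order of arrays, and differed by 2.20 ± 0.78 (SE). Without control array 1 the difference of Kcne2 was 3.24 and passed, at an adjusted p of 0.0303 (limma). In that fit 5 of all 18193 genes passed, Kcne2 included. The mean of the 13 measured choroid plexus genes, a list that holds both, was 7.71, 5.76 and 5.75 on the control arrays and 8.51, 7.91 and 7.59 on the deficient arrays. The part of choroid plexus tissue in the values of single channel genes was not tested beyond the covariate. The vascular channel Kcnj8 differed by 0.17 ± 0.09 (SE) and the astrocyte channel Kcnj10 by 0.09 ± 0.06, both with overlapping groups.

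**Figure D4:**
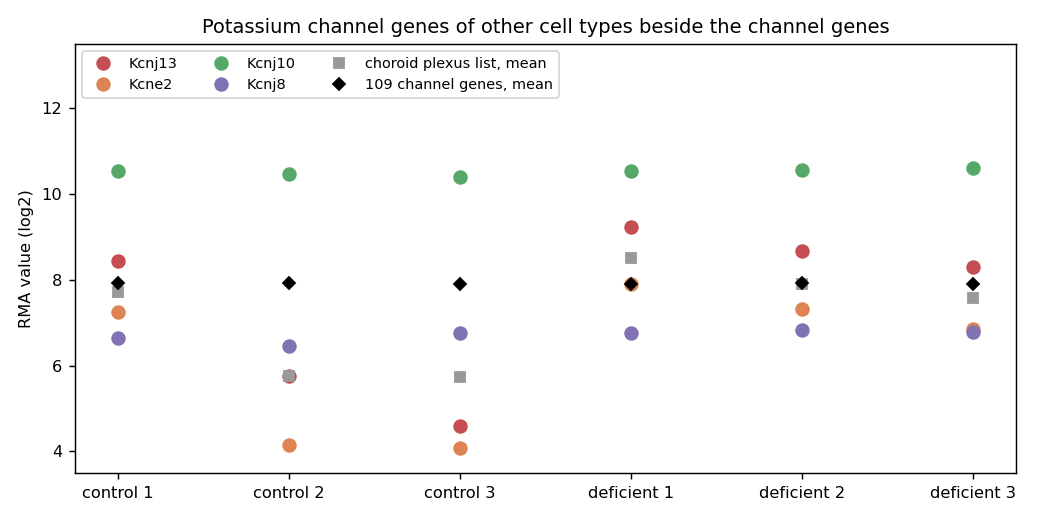
RMA values on the log2 scale (y axis) of Kcnj13, Kcne2, Kcnj10 and Kcnj8 on each of the 6 arrays (x axis), with the mean of 13 choroid plexus genes (grey squares) and of the 109 channel genes (black diamonds). Kcnj13 and Kcne2 move with the choroid plexus mean, low on control arrays 2 and 3, and the channel mean lies between 7.89 and 7.93. On control array 2 the grey square overlies Kcnj13.

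Many members are read by more than 1 probe set, and these did not always give the same sign. The 109 members had 235 probe sets. Of 66 members with more than 1, 26 had a single sign throughout and 40 had at least 1 probe set of the other sign than the one used. Tested one by one among 34945 probe sets, 0 of the 235 passed adjustment, beside 0.0114% of all probe sets. At an unadjusted p under 0.05 (limma) 6 were lower, a probe set each of Kcnd2, Kcnd3, Kcnf1, Kcnip2, Kcnj11 and Kcns2, beside 1.34% of all probe sets. In the other direction 1 was higher, of Kcnq1ot1, beside 2.48% of all probe sets. None of the 7 was the brightest probe set of its gene.

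For some of the probe sets a single array stood apart. For 10 of the 235 member probe sets, or 4.26%, deficient array 2 lay more than 0.50 below all other arrays, as it did for 2.26% of all probe sets. On each of the other 5 arrays, 0 member probe sets lay so far below. The distance of 0.50 was chosen after the values were seen. The 10 belonged to Scn2a, Scn8a, Kcnma1, Kcnk1, Kcnab1, Kcnip2, Kcnip4 and Cacna1d, with 1 each, and Cacnb2, with 2. Those of Scn2a, Kcnk1, Kcnab1, Kcnip4 and Cacna1d had the other sign than the brightest probe set of their gene, and the rest did not. For Scn2a, probe set 1427281_at was at 9.76, 9.54 and 9.84 in controls and 9.72, 8.46 and 9.73 in deficient animals, while the brightest probe set of the same gene was highest on deficient array 2. For Scn8a, 1451894_a_at was at 8.24, 8.09 and 8.30 in controls and 8.20, 7.05 and 8.22 in deficient animals. So for Scn2a, deficient array 2 was the highest of the 6 on 1 probe set and the lowest on another. For Kcnma1, 1425987_a_at was at 7.48 on deficient array 2 and at 8.37 to 8.58 on the others. This array also had the wide 3′ to 5′ gap. It was the highest or lowest of the 6 for 56 members, or 51.4%, beside 50.5% of all genes. The part of RNA quality in the low probe sets was not tested.

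**Figure D5:**
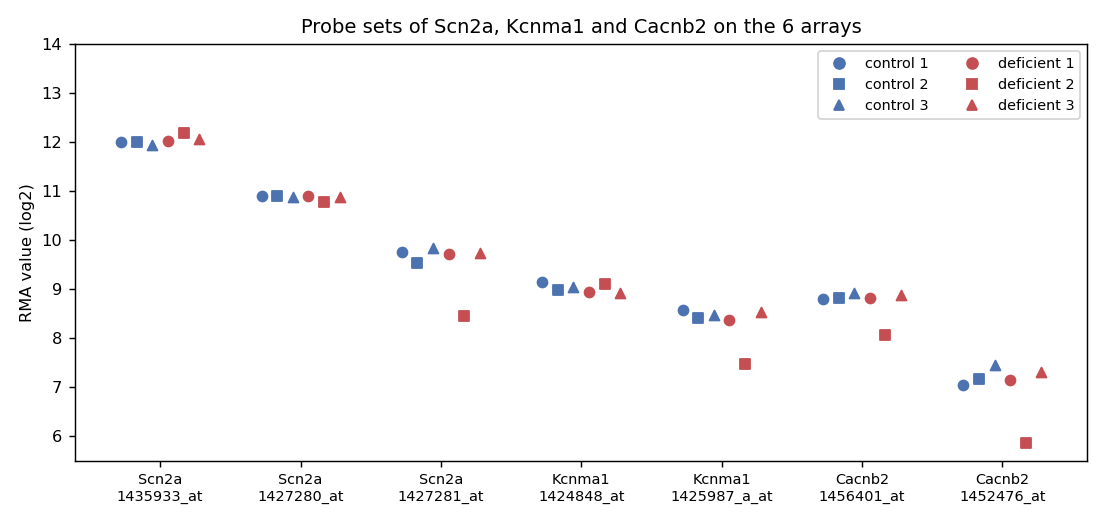
RMA values on the log2 scale (y axis) of 7 probe sets of Scn2a, Kcnma1 and Cacnb2 (x axis), control arrays in blue and deficient arrays in red, with a circle, square and triangle for repeats 1, 2 and 3. Deficient array 2 (red square) lies far below the other arrays for 1 probe set of Scn2a, 1 of Kcnma1 and both of Cacnb2, and is the highest array for the brightest probe set of Scn2a.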

How the data were processed

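Hippocampal total RNA of 3 control and 3 IκBα-deficient mice was measured on 1-colour mouse expression arrays, 1 array per animal. The deposited values are on the log2 scale. Per the submitters' processing notes, the authors used RMA, whose version is not given in the sources used here. Nor are the probe annotation and the genome build. RMA corrects the background, quantile-normalizes the arrays and summarizes the probes of each probe set. Of 45101 probe sets, 64 controls were left out, 34945 had 1 gene symbol in the platform table of GEO (possibly outdated), 932 had several and 9160 had none. Those with 1 symbol were used, and each of 18193 genes was represented by its brightest probe set (highest mean of the 6 arrays), with no filter on dim genes. Pairs of arrays correlated at 0.992 to 0.998 across probe sets, and no arrays were identical. Arrays have no read depth, and their number limits the precision.

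Genes were compared with limma 3.58.1 in R 4.3.3 (two-sided moderated test from lmFit and eBayes, with genotype as the single term), with Benjamini-Hochberg adjustment over all 18193 genes and a threshold of 0.05. The labels call the arrays biological repeats. Genes were named by rule: the targeted gene, members with an unadjusted p under 0.05, the 2 members of each class with the smallest p, the list of excitability channels, the 4 genes set aside and the 4 channel partners with the smallest p. Other names, such as those of probe sets far from the other arrays, were chosen after their values were seen. Members, classes, lists and alternatives were chosen with earlier results of these data known. Classes and lists are described by counts and medians, with no set test. The alternatives left out each array in turn, or used the repeat number as a block, median centring, a further quantile normalization, dim genes left out (the lowest 40%), the mean of all probe sets, shared probe sets left out, array weights, a robust fit with a mean-variance trend, covariates for the choroid plexus list and for the 3′ to 5′ gap, a threshold of 0.10, pore subunits only, and, added after seeing the data, a test without moderation.

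The fit was tested on 20 simulated datasets of 18193 genes with 200 changed, drawn from this comparison's means and spreads. It recovered 91.8% of genes changed by 1 on the log2 scale and 54% of those changed by 0.50, and 4.1% of calls were false. Noise was drawn for each gene on its own, without effects shared by many genes on an array. These shares may therefore not carry over to the real arrays, where Nfkbia at -1.40 had an adjusted p of 0.057 (limma). Figures were drawn with matplotlib 3.10.9.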

Additional observations from a re-analysis of the deposited data

How the results depend on the processing

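Under all 19 alternatives 0 members passed an adjusted p under 0.05 in either direction, also at a threshold of 0.10, and the smallest member adjusted p ranged from 0.627 (limma, Cacna2d2, without IκBα-deficient array 3) to 1. At an unadjusted p under 0.05 (limma), 0 members were higher in the reported fit. That count ranged from 0 to 2 with single arrays left out and was 1 with the trend and robust settings, 1 with array weights, 1 with the 3′ to 5′ covariate and 1 without moderation. The 1 lower member became 0 to 3 with single arrays left out, and 0 with repeated quantile normalization, median centring, dim genes left out, the choroid plexus covariate, the 3′ to 5′ covariate or no moderation. The shares of all genes under the same alternatives are not given here, so these counts are not read as results about the members. The mean difference over the members moved from -0.009 to -0.028 with the mean of all probe sets, and over pore-forming subunits alone the median was 0.002 and the mean -0.003.

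Direction was followed where the reported difference exceeded its SE. With the choroid plexus covariate, a list that holds Kcnj13 and Kcne2, differences turned to 0.036 for Cacna1b, 0.008 for Cacna1h, -0.007 for Cacnb4, 0.011 for Kcnj6, -0.131 for Dpp10, -0.241 for Kcne2 and -0.046 for Kcnj13. With the mean of all probe sets they turned to -0.002 for Cacna2d2 and -0.087 for Scn2a. With shared probe sets left out they turned to 0.064 for Cacna1h and -0.095 for Scn9a. With single arrays left out, Cacnb2 ranged from -0.411 to 0.001, the latter without IκBα-deficient array 2. The median of the calcium channel pore subunits turned from -0.083 to 0.036 with the choroid plexus covariate. The cause was not tested. Without control array 1, the difference of Kcne2 was 3.244 and passed (limma adjusted p = 0.0303), in a fit where 5 of all 18193 genes passed.

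The repeat numbers were also used as a block. Deviations from the group mean correlated at 0.061, 0.238 and 0.195 between arrays of the same number, and arrays 2 and 3 of the deficient group correlated best with their own number, but array 1 with control array 3 (0.143). The series text speaks of 3 pairs with littermate controls, and no label ties a number to a litter, so whether the numbers mark litters is not known. With the block, 0 members were higher and 1 lower at an unadjusted p under 0.05, 0 passed after adjustment, and the smallest member adjusted p was 0.723 (limma, Kcng4).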
